A study of Mus musculus with 4 samples.

Results

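The genes described here are 6 receptors for extracellular nucleotides and 1 enzyme that removes their ligands, all of which are commonly assigned to microglia in the brain: P2ry12, P2ry13, P2ry6, P2ry1, P2rx4, P2rx7 and Entpd1. They were chosen by name, as a group defined by function, with earlier results of these data known. All 7 were found among the 23475 genes with a count in at least 1 library. All 7 also passed the filter on low counts, which left 17696 genes to test. Astrocytes were isolated from mouse cerebral cortex at postnatal day 5, and their RNA was made into libraries. The WT libraries stand for PD1fl/fl mice, which carry a floxed allele of the PD-1 gene, and the KO libraries for PD1cKO-Cx3 mice, a conditional knockout of that gene. The sources used here do not spell out which driver or cell type the suffix Cx3 refers to, nor whether a library holds cells of 1 animal or of several. Each group had 2 libraries, called WT 1, WT 2, KO 1 and KO 2 after their labels. The labels do not state that the libraries of a group are from different animals. By their sex-linked counts, KO 1 and KO 2 did not hold cells of the same animals. Xist had 6778 counts in KO 1 and 0 in KO 2, and Ddx3y had 2472 in KO 2 and was not listed for KO 1. WT 1 and WT 2 did not differ in this way, and whether they came from different animals was not tested. The p-values here therefore reflect only how far these libraries differ, which between WT 1 and WT 2 may be technical.

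Extracellular ATP, released by active or damaged cells, opens the P2X channels, and its breakdown products ADP and, for the uridine nucleotides, UDP act on G protein-coupled P2Y receptors. Microglia carry receptors of both families and use them to sense nucleotides: ADP acting on the receptor encoded by P2ry12 draws their processes towards a site of release. Ectonucleotidases on the cell surface end the signal by stepwise removal of phosphates, which leads from ATP to adenosine, and adenosine has receptors of its own.

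The 4 libraries held 14224519 to 16961160 counts, over 19199 to 21583 genes. Pdcd1, the targeted gene, had 20 counts in KO 2, 0 in WT 1 and WT 2, and was not listed for KO 1, which allows at most 4 counts. Since the only counts of the targeted gene came from a library labelled KO, they do not bear out the labels. With 0 counts in WT 1 and WT 2, they could not have shown a loss in the KO libraries either. Each direction below is that of the libraries as labelled. KO 2 stood apart in sex-linked genes, with 0 counts of Xist and 2472 of Ddx3y, whereas the other 3 libraries had 6732 to 8564 counts of Xist and no listed count of Ddx3y. The labelled cell type was abundant by its defining markers: the 10 astrocyte markers summed to 6455 to 7266 CPM (counts per 1000000, TMM-scaled) in each library. Markers of other cells were present as well. The 20 microglia and macrophage markers, which contain none of the 7 genes, summed to 4791 CPM in KO 1, 3950 in KO 2, 1002 in WT 1 and 1447 in WT 2. The 8 border macrophage markers summed to 19.6 to 177 CPM, the 8 endothelial markers to 66.9 to 514, the 7 pericyte and smooth muscle markers to 317 to 637, the 8 oligodendrocyte lineage markers to 1928 to 2869 and the 8 neuron markers to 898 to 1208.

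The ADP receptor gene P2ry12 was 5.89-fold higher in the KO-labelled libraries, the neighbouring ADP receptor gene P2ry13 was 4.74-fold higher, and the UDP receptor gene P2ry6 and the ectonucleotidase gene Entpd1 were 3.37-fold and 2.09-fold higher. The ATP-gated channel genes P2rx4 and P2rx7 had ratios of only 1.41 and 1.25, and P2ry1 had a ratio of 0.601. Of these differences, that of P2ry12 alone passed the test at an adjusted p of 0.05 (edgeR quasi-likelihood test, Benjamini-Hochberg over all genes tested). The genes therefore differed in size of contrast and not only in level. In RNA of a whole cell preparation, fewer cells of a type and less RNA per cell cannot be told apart.

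The bases before start sites are given for genes with large and with small contrasts, and no relation to the size of contrast was tested. The stretches below are the 250 bases before an annotated start, from RefSeq on GRCm38.p6, written 5′ to 3′ on the strand of the gene. They are given for P2ry12 (chr3:59262986-59263235, minus strand) and P2ry13 (chr3:59210883-59211132, minus strand), which had the largest contrasts. The first start of P2rx7 (chr5:122643677-122643926, plus strand) is given because this gene had the smallest of the positive contrasts. For Entpd1 the second start is given (chr19:40659520-40659769, plus strand), which, unlike its first start, holds the motif marked below. Capitals mark GAGGAA, a core sequence bound by PU.1, the transcription factor of myeloid cells.
P2ry12: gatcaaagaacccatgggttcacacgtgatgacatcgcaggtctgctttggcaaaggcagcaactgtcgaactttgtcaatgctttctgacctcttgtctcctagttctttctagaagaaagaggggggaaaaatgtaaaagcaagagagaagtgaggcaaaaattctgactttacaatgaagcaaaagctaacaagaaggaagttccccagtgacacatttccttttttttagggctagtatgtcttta
P2ry13: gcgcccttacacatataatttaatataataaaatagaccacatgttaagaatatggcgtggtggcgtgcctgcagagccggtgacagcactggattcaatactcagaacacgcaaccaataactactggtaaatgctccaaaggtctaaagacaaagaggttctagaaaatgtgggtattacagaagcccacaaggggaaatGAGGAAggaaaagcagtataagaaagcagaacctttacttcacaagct
Entpd1: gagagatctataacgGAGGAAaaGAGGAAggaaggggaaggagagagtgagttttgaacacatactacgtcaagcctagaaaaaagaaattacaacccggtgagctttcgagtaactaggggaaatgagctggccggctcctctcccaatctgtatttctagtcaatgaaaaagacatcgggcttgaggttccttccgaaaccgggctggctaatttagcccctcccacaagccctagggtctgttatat
P2rx7: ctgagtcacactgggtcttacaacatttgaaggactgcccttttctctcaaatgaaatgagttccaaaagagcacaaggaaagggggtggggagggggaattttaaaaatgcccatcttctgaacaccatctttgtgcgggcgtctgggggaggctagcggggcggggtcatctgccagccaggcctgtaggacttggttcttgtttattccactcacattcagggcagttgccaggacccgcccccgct
GAGGAA was searched on both strands. It stood at position -48 from the start of P2ry13, and at positions -235 and -227 from the second start of Entpd1, each time on the strand of the gene. Of the 8 promoters found for 6 of the 7 genes, 2 held the motif, beside 23.3% of the 32817 promoters of the same length. The promoter of P2ry12 and the first start of Entpd1, which is not printed, had 0 matches. No promoter was found for P2ry6. A match describes the letters and shows no binding.

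P2ry12 encodes the Gi-coupled ADP receptor through which microglial processes are attracted. It lies on chromosome 3 at 59216272-59262871, minus strand (GRCm38, ENSMUSG00000036353). Its level was 669 CPM in KO 1, 561 in KO 2, 95.2 in WT 1 and 114 in WT 2, from 10713, 9153, 1607 and 1635 counts. Both KO-labelled libraries lay far above both WT-labelled ones, and libraries of a group lay close together. The group means were 615 ± 76.5 and 104 ± 13 CPM (SD, n = 2), and P2ry12 rose by 2.56 ± 0.16 on the log2 scale (SE), with a 95% interval of 2.17 to 2.95 and an adjusted p of 0.029 (edgeR). The log2 difference was 2.68 without KO 2 and 2.44 without WT 1. Fits that leave 1 library in a group are read for the size of the difference only. The call itself rests on 2 libraries per group.

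P2ry13 encodes a second Gi-coupled ADP receptor and lies beside P2ry12, at 59207892-59210882 on the same strand of chromosome 3 (ENSMUSG00000036362). Its level was 159 CPM in KO 1, 141 in KO 2, 33.2 in WT 1 and 30 in WT 2. The groups were as clearly apart as for P2ry12, with means of 150 ± 13.2 and 31.6 ± 2.2 CPM (SD, n = 2). The log2 difference was 2.24 ± 0.17 (95% interval 1.82 to 2.66), and its adjusted p from edgeR was 0.056. It passed the same threshold with DESeq2 (adjusted p = 2.3e-21) and limma-voom (adjusted p = 0.015). The number of P2ry12 counts per P2ry13 count was 4.21 and 3.99 in the KO-labelled libraries and 2.87 and 3.78 in the WT-labelled ones.

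P2ry6 encodes the Gq-coupled UDP receptor, known in microglia for its part in phagocytosis, and lies on chromosome 7 at 100937630-100974649, minus strand (ENSMUSG00000048779). Its level was 109 CPM in KO 1, 78.2 in KO 2, 14.1 in WT 1 and 41.4 in WT 2. The groups did not overlap, but WT 1 and WT 2 differed from each other more than KO 1 and KO 2 did in proportion. The means were 93.7 ± 22 and 27.8 ± 19.3 CPM (SD, n = 2), with a log2 difference of 1.76 ± 0.51 (95% interval 0.50 to 3.01) and an adjusted p of 0.45 (edgeR). Leaving out WT 1 brought the difference to 1.18 and leaving out WT 2 brought it to 2.73. With DESeq2 the adjusted p was 0.0016.

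P2ry1 encodes a Gq-coupled ADP receptor that astrocytes are also known to use in calcium signalling. It lies on chromosome 3 at 61002795-61008982, plus strand (ENSMUSG00000027765). Its level was 2.94 CPM in KO 1, 9.81 in KO 2, 18.4 in WT 1 and 2.85 in WT 2. The highest and the lowest library were both labelled WT, so the groups overlapped, and the spread within each group exceeded the difference of the means (6.37 ± 4.9 and 10.6 ± 11 CPM, SD, n = 2). The log2 difference was -0.74 ± 0.97 (95% interval -3.14 to 1.67, edgeR adjusted p = 0.94), and it turned to 1.16 without WT 1. Reads of P2ry1 are also the least certain of the 7 genes, because 992 bases, or 23% of its exon length, overlap exons of Gm37035 on the opposite strand and the sources used here do not say whether reads were counted by strand. Gm37035 itself had 27, 8, 32 and 0 counts in KO 1, KO 2, WT 1 and WT 2.

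P2rx4 and P2rx7 encode ATP-gated cation channels. P2rx7 needs high ATP and is known as the trigger of the inflammasome and of interleukin-1β release, and P2rx4 opens at lower ATP. They are neighbours on the plus strand of chromosome 5, at 122707544-122729738 (P2rx4, ENSMUSG00000029470) and 122643911-122691432 (P2rx7, ENSMUSG00000029468). P2rx7 had 58.5 CPM in KO 1, 64.7 in KO 2, 53.3 in WT 1 and 45.1 in WT 2. P2rx4 had 19.7, 18.3, 14.2 and 12.8 CPM in the same order. In both genes the KO-labelled libraries were the higher ones, by margins that were small beside those of the P2Y genes above. The log2 difference was 0.32 ± 0.20 for P2rx7 (95% interval -0.16 to 0.81, edgeR adjusted p = 0.77). It was 0.50 ± 0.28 for P2rx4 (95% interval -0.20 to 1.19, edgeR adjusted p = 0.75). Neither channel gene passed with DESeq2 (adjusted p = 0.97 and 1) or with limma-voom (0.68 and 0.67), and the upper ends of both intervals lie below the lower end of that of P2ry12. The ratio of P2rx7 to P2rx4 counts stayed between 2.97 and 3.77 in the 4 libraries. Of the 50-base stretches of P2rx4 transcripts, 1.6% also occur in transcripts of other genes, 413 in number, and of those of P2rx7 1.2% do.

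Entpd1 encodes CD39, the enzyme that takes ATP and ADP down to AMP and so removes the ligands of P2rx4, P2rx7, P2ry12 and P2ry13. It lies on chromosome 19 at 40612366-40741602, plus strand (ENSMUSG00000048120). Its level was 78.1 CPM in KO 1, 75.3 in KO 2, 31.5 in WT 1 and 41.9 in WT 2. The 2 groups were apart, and KO 1 and KO 2 were nearly equal. The means were 76.7 ± 2 and 36.7 ± 7.4 CPM (SD, n = 2), the log2 difference was 1.06 ± 0.22 (95% interval 0.53 to 1.60), and the edgeR adjusted p was 0.28. With DESeq2 the adjusted p was 0.0078.

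**Figure D1:**
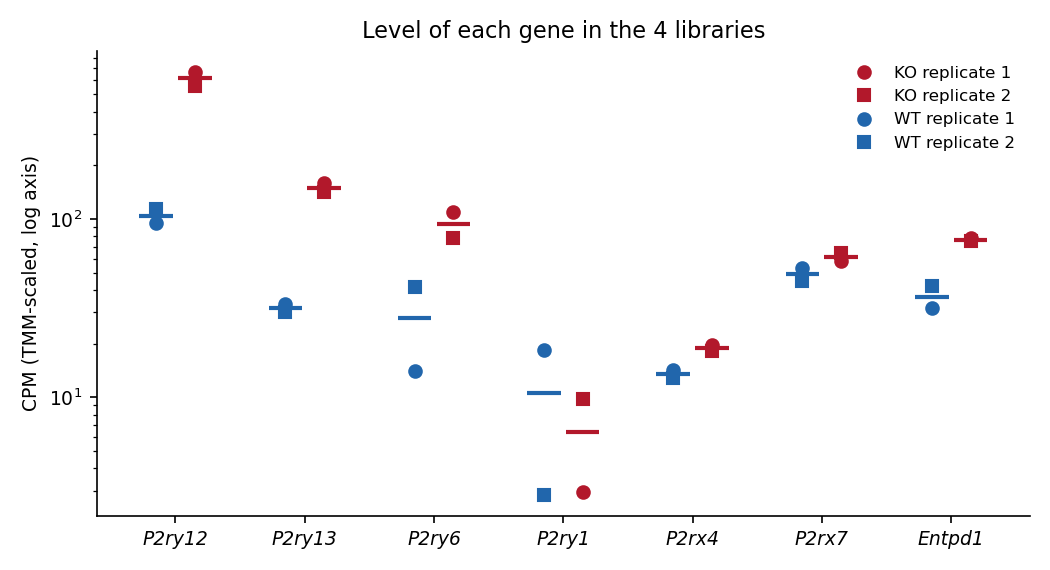
Level of each of the 7 genes in the 4 libraries, in TMM-scaled CPM on a log axis, with 1 point per library and a bar at the group mean. The KO-labelled points lie above the WT-labelled ones in 6 genes, from 669 and 561 against 95.2 and 114 CPM for P2ry12 to 58.5 and 64.7 against 53.3 and 45.1 for P2rx7, and they overlap for P2ry1.

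Counted over the 7 genes, 1 passed the edgeR test as higher in the KO-labelled libraries, beside 0.0170% of all genes tested, and 0 passed as lower, beside 0 of 17696. At an unadjusted p under 0.05, 4 were higher (P2ry12, P2ry13, P2ry6 and Entpd1), beside 5.88% of all genes, and none was lower, beside 2.41%. Both KO-labelled libraries lay above both WT-labelled ones in 6 of the 7, beside 21.2% of all genes, and below them in none, beside 18.4%. The median log2 difference was 1.06 over the 7 genes and 0.00 over all genes tested. DESeq2 called 4 of the 7 as higher, beside 1.80% of the genes it tested, and limma-voom called 2, beside 0.141%. Because the 7 genes were chosen with earlier results of these data known, these counts are a description and no independent support. Without KO 2, the library with the different sex-linked counts, the log2 differences were 2.68 for P2ry12, 2.33 for P2ry13 and 1.98 for P2ry6. They were 1.09 for Entpd1, 0.54 for P2rx4, 0.25 for P2rx7 and -1.85 for P2ry1.

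**Figure D2:**
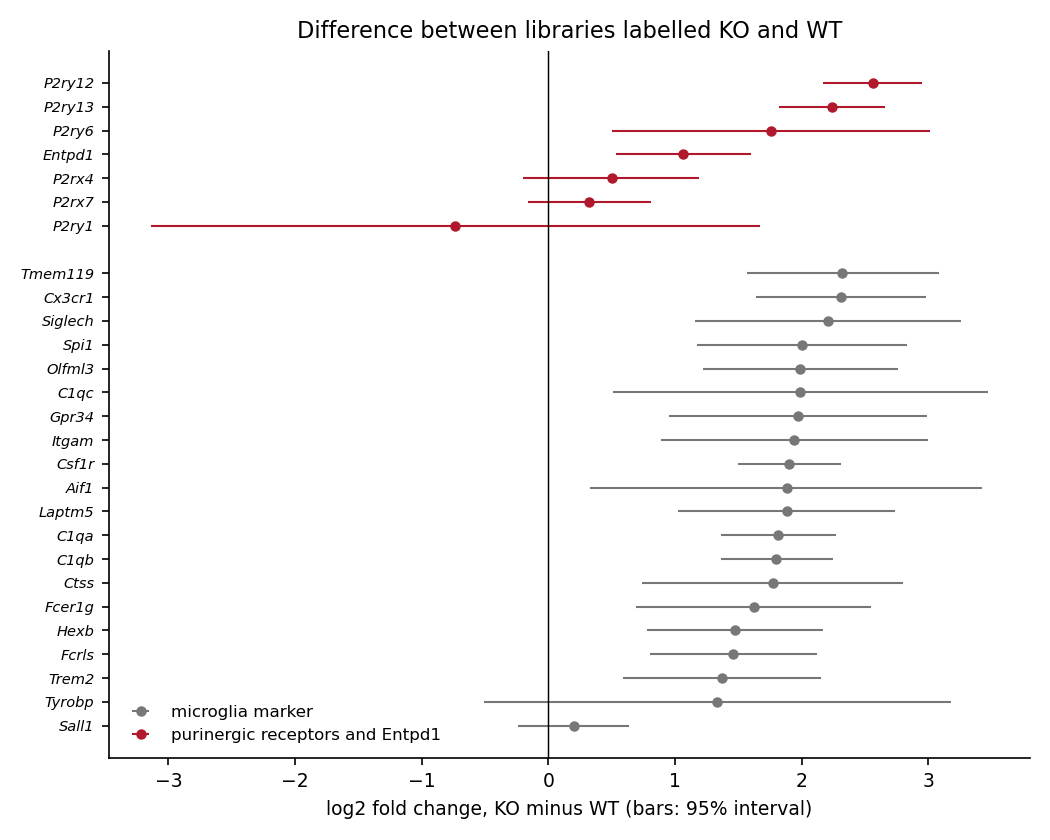
Log2 difference (KO minus WT) of each of the 7 genes from the edgeR fit, in red, above the 20 microglia markers in grey, with the 95% interval of each as a line and a vertical line at 0. The interval of P2ry12, 2.17 to 2.95, lies farthest from 0, and those of P2rx4, P2rx7 and P2ry1 include 0, and the markers lie between 0.20 and 2.32.

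The make-up of the receptor set was described by each gene's share of the summed counts. P2ry12 took 61% and 59.2% of the summed counts of the 7 genes in KO 1 and KO 2, and 36.6% and 39.5% in WT 1 and WT 2 (of 17556, 15462, 4385 and 4139 counts). The share of P2rx7 went the other way, with 5.33% and 6.82% in KO 1 and KO 2 and 20.5% and 15.7% in WT 1 and WT 2. For P2ry12 in WT 2, the exact Clopper-Pearson 95% interval was 38% to 41%, and in KO 2 it was 58.4% to 60%. These intervals cover counting error only. Entpd1 held 7.12% and 7.94% against 12.1% and 14.6%, and P2rx4 1.79% and 1.93% against 5.45% and 4.45%. P2ry13 held 14.5% and 14.8% against 12.8% and 10.4%, the only other gene besides P2ry12 whose share was higher in both KO-labelled libraries. For P2ry6 (9.96% and 8.25% against 5.43% and 14.4%) and P2ry1 (0.268% and 1.03% against 7.07% and 0.991%) the shares overlapped between groups. These shares are given as values and were not tested. An exact permutation test of 2 libraries against 2 cannot give a p below 0.333.

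**Figure D3:**
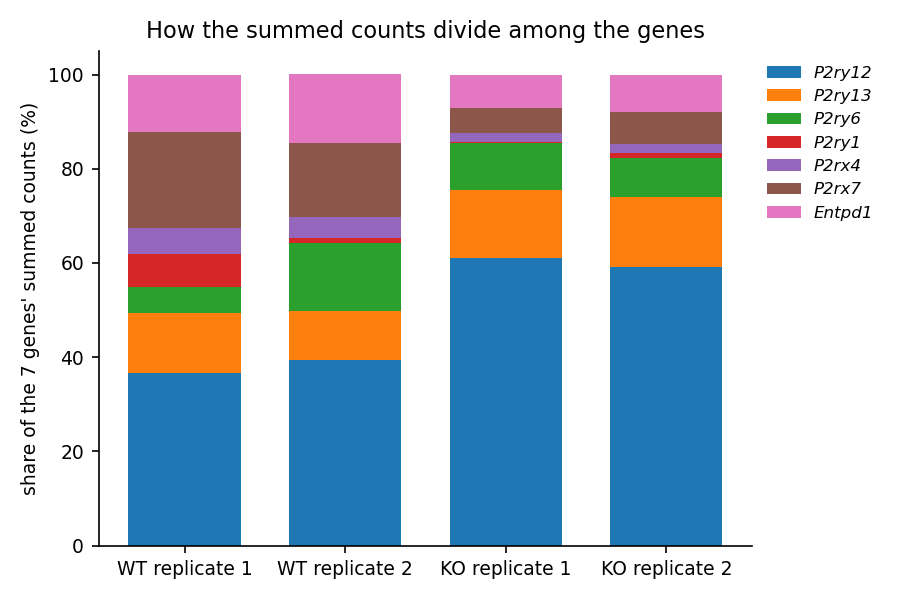
Share of each of the 7 genes in their summed counts, in percent, with 1 stacked bar per library from 0 to 100. P2ry12 fills 61% and 59.2% of the bars of KO 1 and KO 2 and 36.6% and 39.5% of those of WT 1 and WT 2, and P2rx7 takes 15.7% to 20.5% in the WT-labelled libraries.

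Levels of different genes were compared per kb of merged exon. In the KO-labelled libraries the order was P2ry12 (242 ± 30 CPM per kb, SD, n = 2), P2ry13 (59.3 ± 5.2), P2ry6 (32.5 ± 7.6), Entpd1 (13.7 ± 0.36), P2rx7 (10.3 ± 0.73), P2rx4 (2.71 ± 0.14) and P2ry1 (1.49 ± 1.1). In the WT-labelled libraries P2ry12 was again first (41 ± 5.1), followed by P2ry13 (12.5 ± 0.88), P2ry6 (9.62 ± 6.7), P2rx7 (8.24 ± 0.98), Entpd1 (6.58 ± 1.3), P2ry1 (2.47 ± 2.6) and P2rx4 (1.92 ± 0.14). P2ry13, P2ry6 and P2rx7 were closer than the spread of P2ry6 there, and P2ry1 and P2rx4 were closer than that of P2ry1. Per kb of the longest transcript, the WT order changed: P2ry6 (14.3 ± 9.9) came before P2ry13 (12.5 ± 0.88), and P2rx4 (3.46 ± 0.25) before P2ry1 (2.73 ± 2.8). P2ry12 stood clear of all the others in both groups, and the range from first to last was wider in the KO-labelled libraries.

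The microglia markers differed between the libraries in the same direction as most of the 7 genes. All 20 had a log2 difference above 0, from 0.20 for Sall1 to 2.32, with a median of 1.88. None of them passed with edgeR (18 had an unadjusted p under 0.05), and 14 passed with DESeq2. Csf1r, the receptor for the survival factor of microglia, had 1142, 874, 249 and 290 CPM in KO 1, KO 2, WT 1 and WT 2, and Cx3cr1, the fractalkine receptor, had 758, 716, 108 and 190. The level of each of the 7 genes was therefore also given per 1000 summed counts of these markers. P2ry12 then had 140 and 142 in KO 1 and KO 2 and 95.1 and 78.5 in WT 1 and WT 2, so that the groups remained apart at a ratio of 1.62. For P2ry13 the values were 33.2 and 35.6 against 33.1 and 20.8, a ratio of 1.28 with KO 1 and WT 1 nearly equal. P2ry6 had a ratio of 0.997, from 22.8 and 19.8 against 14.1 and 28.6, and its groups overlapped. The marker sums were 76669, 64416, 16906 and 20817 counts in KO 1, KO 2, WT 1 and WT 2. Sall1 gave 1647, 2094, 1823 and 1348 of these, so it weighed more in the sums of the WT-labelled libraries. A sum without Sall1 was not used.

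The channel genes and Entpd1 lay the other way on this measure. It is not a level per microglial cell, since transcripts of a gene from any other cells in the library also enter it. How much of each gene's counts came from other cells was not tested. Per 1000 marker counts, P2rx7 had 12.2 and 16.4 in KO 1 and KO 2 and 53.2 and 31.1 in WT 1 and WT 2, a ratio of 0.339. P2rx4 had 4.11 and 4.64 against 14.1 and 8.84, a ratio of 0.381, and Entpd1 16.3 and 19.1 against 31.4 and 29, a ratio of 0.586. P2ry1 (0.613 and 2.48 against 18.3 and 1.97) overlapped between groups. The markers themselves, each divided by the sum of the other markers, had ratios from 0.292 for Sall1, next 0.703 for Tyrobp, up to 1.43 for Tmem119 and 1.51 for Cx3cr1. The ratio of P2ry12 (1.62, propagated SD 0.219) lay above that of each of the 20 markers, though that of Cx3cr1 was within this spread. Those of P2rx7, P2rx4 and Entpd1 lay below the ratios of all the markers but Sall1. Markers of border macrophages (median log2 difference 2.22 over 7 tested; Mrc1, their mannose receptor, 111, 57.8, 14.6 and 15.7 CPM) and of endothelial cells (median 1.92 over 8; Cldn5, a tight junction protein, 273, 136, 78.3 and 24.4 CPM) were higher in the same libraries. For the 10 astrocyte markers the median was -0.06, with Slc1a3, the glutamate transporter, at 2907, 2744, 2995 and 2952 CPM. The oligodendrocyte lineage list had a median of 0.65, the pericyte list 0.45 and the neuron list -0.29. P2ry12 and P2ry1 are also receptors of platelets. Of 6 platelet markers, Gp9, Ppbp and Gp6 were not listed, and the other 3 summed to 17.1, 13.9, 13.4 and 9.94 CPM, with a median log2 difference of 2.31. Gp1bb made up most of that sum (14.2, 10.4, 12.4 and 9.94 CPM), while Itga2b (2.25, 2.58, 0.948 and 0) and Gp1ba (0.687, 0.859, 0.0593 and 0) were low. The part of these cell populations in the differences of the 7 genes was not tested.

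**Figure D4:**
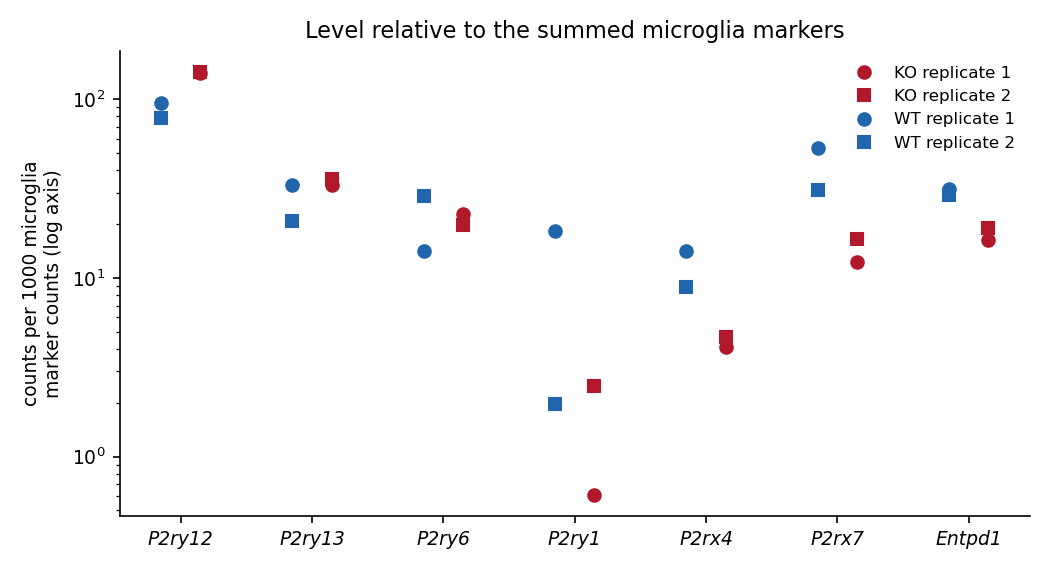
Counts of each of the 7 genes per 1000 summed counts of the 20 microglia and macrophage markers, on a log axis, with 1 point per library. The KO-labelled points lie above the WT-labelled ones for P2ry12 (140 and 142 against 95.1 and 78.5) and below them for P2rx4, P2rx7 and Entpd1.

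Of 41 other genes of purinergic signalling, 36 were in the files and 33 were tested. None passed with edgeR, although 10 had an unadjusted p under 0.05 and were higher, beside 5.88% of all genes. DESeq2 called 2, Adora3 and Irf8, as higher, beside 1.80%. The median log2 difference was 0.21, beside 0.00 over all genes. Both KO-labelled libraries lay above both WT-labelled ones in 15 of the 33, beside 21.2% of all genes, and below them in 2, beside 18.4%. This list, too, was chosen with earlier results of these data known. Single genes of the list had fitted differences above the 2.56 of P2ry12, namely Il1b (6.69), Adora3 (2.94) and P2rx1 (2.77). Il1b had 0 counts in WT 1 and WT 2, so its fitted value is not a measured ratio, and a lower bound is given below.

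Among the other receptors, the median was -0.17 for 2 P2Y genes, 0.75 for 4 P2X genes and 0.54 for the 4 adenosine receptor genes. The P2Y genes were P2ry14, a receptor for UDP-sugars and neighbour of P2ry12 and P2ry13, with 6.31, 12.9, 7.23 and 17.9 CPM in KO 1, KO 2, WT 1 and WT 2, and P2ry2, a receptor for ATP and UTP, with 5.12, 2.88, 4.21 and 3.48. Both overlapped between groups. P2rx1, an ATP-gated channel gene named after its values were seen, had 7.12, 6.38, 1.6 and 0.348 CPM (log2 difference 2.77 ± 0.88, edgeR adjusted p = 0.47). P2rx5 had 15.1, 10.7, 6.4 and 3.55 CPM (log2 difference 1.37, edgeR adjusted p = 0.51), and P2rx6 overlapped between groups (12, 5.83, 9.54 and 12 CPM). Adora2b, the low-affinity adenosine receptor, had 87.4, 70.6, 48.3 and 43.2 CPM, a log2 difference of 0.79 ± 0.20 and an edgeR adjusted p of 0.38. Adora1 had 44.2, 38.7, 36 and 31.4 CPM, a log2 difference of 0.30.

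The 7 other ectonucleotidases, among the genes that handle the ligands, had a median of -0.44. That is opposite in sign to the difference of Entpd1, but none of the 7 had an unadjusted p under 0.05 (edgeR). Enpp2, which encodes autotaxin, had 98.1, 91.5, 77.7 and 70.4 CPM in KO 1, KO 2, WT 1 and WT 2, and Alpl, tissue-nonspecific alkaline phosphatase, had 66.6, 75.7, 115 and 61.1 CPM. Of the 7, Entpd2 and Entpd3, relatives of Entpd1, had both KO-labelled libraries below the WT-labelled ones. Enpp2 and Nt5e had them above (Nt5e 9, 6.44, 5.81 and 2.5 CPM, log2 difference 0.89 ± 0.60). These are 2 genes each way, beside 18.4% of all genes below and 21.2% above. Entpd2, Entpd3 and Nt5e were named after their values were seen. Entpd2, an enzyme that removes mainly ATP, had 17.6, 11.9, 30.6 and 19.5 CPM, a log2 difference of -0.77 ± 0.36 with an edgeR adjusted p of 0.66. Adenosine uptake and breakdown had a median of 0.00 over 5 genes. Its most abundant members were the adenosine transporter gene Slc29a1 (166, 126, 107 and 93.6 CPM) and the adenosine kinase gene Adk (137, 135, 125 and 146 CPM), of which the first had a log2 difference of 0.54 and the second of 0.00. ATP release had a median of -0.40 over 3 genes, with Panx1, a release channel, at 39.1, 42.3, 26.8 and 50 CPM and Panx2 at 1.31, 1.96, 3.5 and 0.834 CPM.

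The genes listed as partners downstream of the receptors include transcription factor genes, Irf8 and Irf5, and do not stand for receptor signalling alone. They had the highest median of the roles, 1.56 over 8 tested. At an unadjusted p under 0.05 (edgeR), 5 were higher, beside 5.88% of all genes, and none passed after adjustment. The most abundant of all the listed partners were Gnai2 and Il18, neither of which was among those 5. Gnai2, the G protein subunit that P2ry12 signals through, had 98.5, 84, 79.9 and 77.9 CPM in KO 1, KO 2, WT 1 and WT 2. Il18, a cytokine matured by the inflammasome, had 40.4, 38.9, 39.3 and 55.8 CPM. Irf8, a myeloid transcription factor, was named for its DESeq2 call and had 63.7, 49.5, 14.5 and 16.8 CPM (log2 difference 1.86, edgeR adjusted p = 0.12). Il1b had 12 and 14 counts in KO 1 and KO 2 and 0 in WT 1 and WT 2, which is at least 4.16-fold higher when 3 counts per library are taken as the limit of a 0. With that bound in place of its fitted value, the median of the partners was 1.56 and that of the whole list 0.21.

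**Figure D5:**
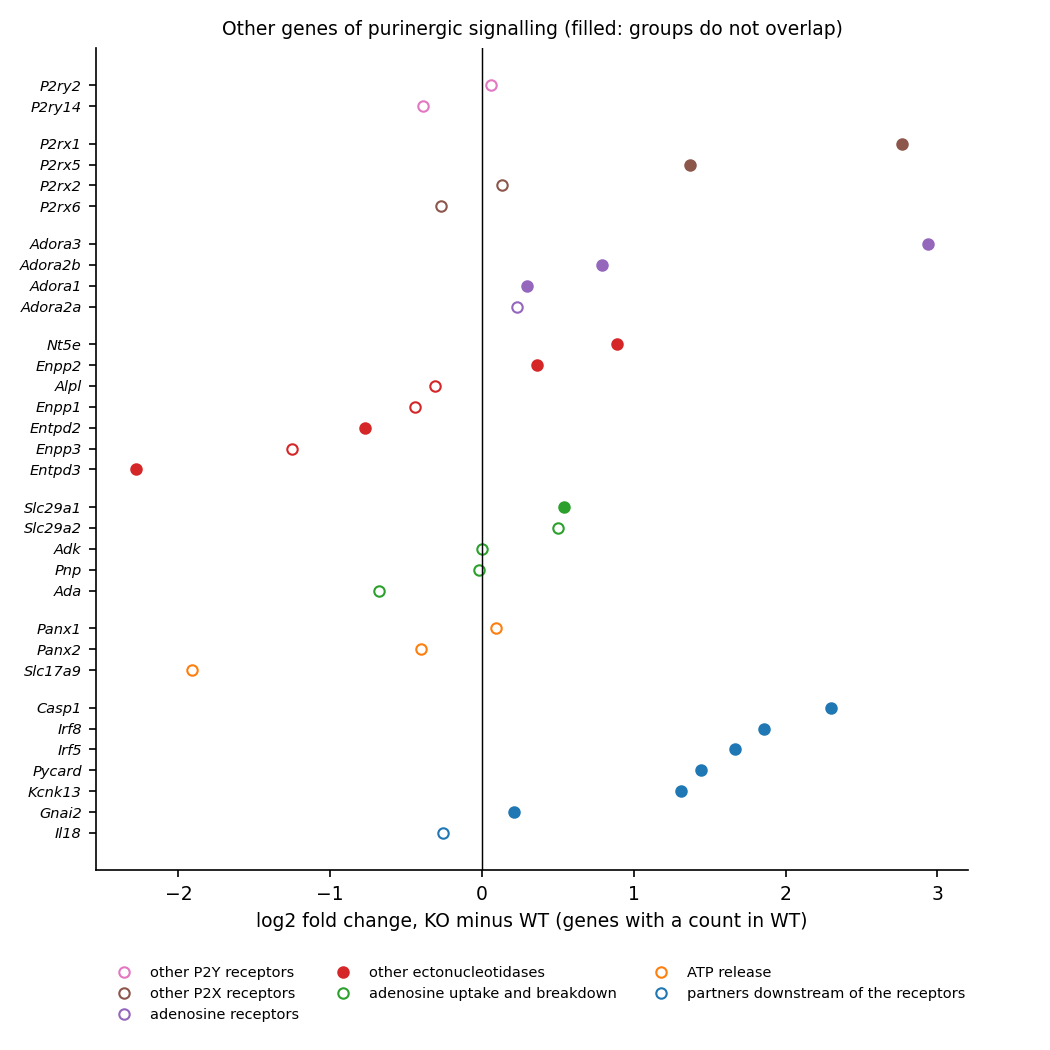
Log2 difference (KO minus WT, edgeR) of the other tested genes of purinergic signalling that had a count in a WT-labelled library, grouped by role, with 1 point per gene, filled where the groups do not overlap. The genes listed as partners downstream of the receptors lie mostly above 0 (median 1.56 over 8 tested). The other ectonucleotidases centre below 0 (median -0.44 over 7).

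The profile of P2ry12 over the 4 libraries was compared with those of the 12191 genes with a mean of at least 5 CPM, by the distance between centred log2(CPM + 0.5) values. Of the 7 genes, P2ry13 was nearest (distance 0.43, with 12 genes nearer), then P2ry6 (1.12, 132 nearer), Entpd1 (1.50, 313), P2rx4 (2.09, 1215), P2rx7 (2.27, 2124) and P2ry1 (3.78, 12065). P2ry1 was thus among the genes least like P2ry12 over these libraries, although both encode ADP receptors. The 5 nearest genes were Adora3, the A3 adenosine receptor (distance 0.17), Lyz2, the lysozyme of myeloid cells (0.22), Ptgs1, which encodes cyclooxygenase-1 (0.28), Adgre1, which encodes the macrophage antigen F4/80 (0.28), and Tlr2, a toll-like receptor (0.30). Adora3 had 14.7, 10.9, 1.6 and 1.74 CPM in KO 1, KO 2, WT 1 and WT 2, a log2 difference of 2.94 ± 0.48 and an edgeR adjusted p of 0.17. Lyz2 had 184, 159, 31.6 and 34.9 CPM, a log2 difference of 2.37 ± 0.17 and an edgeR adjusted p of 0.051. A distance over 4 libraries is a description, and the list depends on the measure of likeness: with Pearson's correlation, 150 genes had an r of at least 0.99 and none of these 5 was among the 5 highest.

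Within 100 kb of a member, or overlapping one, 23 genes had counts, 19 were tested and none passed with edgeR (1 had an unadjusted p under 0.05). Med12l, a Mediator subunit gene at 59005825-59318682 on the plus strand of chromosome 3, spans both P2ry12 and P2ry13 on the opposite strand. It had 51.9, 43.7, 36.1 and 37.1 CPM in KO 1, KO 2, WT 1 and WT 2, a log2 difference of 0.38 ± 0.21 and an edgeR adjusted p of 0.73. Its exons overlap 9 bases (0.35%) of those of P2ry12 and 0 of those of P2ry13. Camkk2, a kinase gene next to P2rx4, had 38.1, 40.8, 30.8 and 20.4 CPM (log2 difference 0.62, edgeR adjusted p = 0.64). Gm27042, a noncoding RNA gene near Entpd1, had 32, 34, 0 and 3 counts. Its log2 difference of 4.23 ± 1.70 was the highest among these neighbours and above that of P2ry12, with an edgeR adjusted p of 0.59. Its summed counts of 66 and 3 give a ratio of 21.1 (exact 95% interval 6.91 to 105, for counting error only). The remaining 15 tested genes besides Gm37035 had log2 differences between -1.13 and 0.36, with edgeR adjusted p-values of 0.872 or more. The transcripts of P2ry12, P2ry13, P2ry6 and Entpd1 shared 0 of their 50-base stretches with other genes.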

How the data were processed

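RNA-seq libraries of cortical astrocytes were read from deposited tables of counts per gene. The tools named in the submitters' processing notes are TopHat2 2.0.12, HTSeq 0.6.0 and Bowtie2 2.2.3, and the build named there is mm9. The gene positions in the deposited count tables were those of GRCm38 (90.6% of 23475 identical to GENCODE M21, all 7 members included), so positions are given on GRCm38. The tables were joined by gene identifier. A gene missing from all tables of a library had at most 4 counts there and was set to 0.

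The counts were tested with edgeR 4.0.16 (TMM, filterByExpr with a minimum count of 10, quasi-likelihood test, Benjamini-Hochberg over 17696 genes, threshold 0.05) in R 4.3.3, with group as the only term and 2 residual degrees of freedom. CPM values are TMM-scaled. DESeq2 1.42.0 and limma 3.58.1 (voom) were alternatives, as were other scalings, filters, the replicate number as a block, and fits with 1 library left out. The fit was tested on simulated data.

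The 7 members and all gene lists were chosen with earlier results of these data known. Named beside the members were, per role and marker list, the 2 genes of highest mean CPM, genes around the members, and the 5 genes nearest P2ry12; marker lists are shown by their leading gene. Others are said to be chosen after their values were seen, or for a DESeq2 call. Promoter sequences came from RefSeq (GRCm38.p6). Depth per library was 14224519 to 16961160 counts.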

Additional observations from a re-analysis of the deposited data

How the results depend on the processing

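The number of the 7 genes called was 1 with the settings of the report and 1 with DESeq2 size factors, library totals, the replicate block or unlisted counts at 4. It was 4 with DESeq2 and 2 with limma-voom, no low-count filter, a mean of at least 5 CPM or a threshold of 0.1. The number called over all genes changed as well. It was 3 higher and 0 lower of 17696 with the settings of the report, and 316 and 57 of 17558 with DESeq2. With limma-voom it was 25 and 3 of 17696, and with no low-count filter 52 and 4 of 23475. With a mean of at least 5 CPM it was 63 and 5 of 12197, and at a threshold of 0.1 it was 14 and 1 of 17696. Of the 7 genes, P2ry13 passed in each setting that called 2 of them, and P2ry13, P2ry6 and Entpd1 passed in addition with DESeq2. Of the other purinergic genes, DESeq2 called 2 and the filter at 5 CPM called 1, against 0. No gene around the members was called in any setting. The deviations of same-numbered libraries were hardly correlated over genes (0.0405), which cannot show whether the libraries were paired. With the replicate numbers as a block the edgeR adjusted p was 0.031 for P2ry12, and no call among the 7 was gained or lost.

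The log2 difference of 6 of the 7 genes kept its sign in all settings run. With 1 library left out it ranged from 2.43 to 2.69 for P2ry12, 2.16 to 2.33 for P2ry13, and -1.85 to 1.16 for P2ry1, whose sign turned. The sign also turned in these ranges for P2ry14 (-0.99 to 0.41), P2ry2 (-0.41 to 0.41, and -0.01 with limma-voom), P2rx6 (-0.88 to 0.15), Alpl (-0.70 to 0.22), Panx1 (-0.30 to 0.61), Panx2 (-1.09 to 0.97), Il18 (-0.49 to 0.01) and Gm37035 (-0.94 to 7.09). Adk lay at 0.00 with DESeq2, DESeq2 size factors and the filter at 5 CPM, at -0.01 with library totals, and between -0.10 and 0.12 in the leave-one-out fits. The cause was not tested.

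Per summed astrocyte markers in place of microglia markers, the ratio of KO to WT was 6.05 for P2ry12, 4.9 for P2ry13, 3.41 for P2ry6, 0.655 for P2ry1, 1.46 for P2rx4, 1.3 for P2rx7 and 2.15 for Entpd1. Per kb of the longest transcript, the WT means were 3.46 CPM for P2rx4, 9.97 for P2rx7 and 8.69 for Entpd1, and the order changed as given above. With 2 libraries a group, edgeR had 2 residual degrees of freedom. P2ry1 had as few as 41 counts in a library.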
